A study of Mus musculus with 39 samples.

Results

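The 15 hippocampal libraries of 24-month-old mice from standard cages (24mSC), out of 39 libraries in the series, carry 2 kinds of mouse names. In 6 of them the name begins with OE (OE3270 to OE3275), and in 9 it is a number after the age (24_1055, 24_1056, 24_1062 to 24_1065, 24_1073, 24_1075 and 24_1077). All 15 are male C57BL/6 mice of the same labelled age, tissue and housing, with no perturbation given, so the naming was the only label that set them apart. The members were taken by name and not by a measured value, but the choice of this part and of the gene lists was made with earlier results of these data known. The 6 OE-named mice were compared with the 9 numbered mice, once with all libraries and once without mouse OE3273, whose mitochondrial share of counts stood apart.

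Standard mice were kept in groups in plain cages with food and water at will, and each library came from the hippocampus of 1 mouse. The other groups served as a frame and were likewise male C57BL/6. Of these, 24mEE (n = 5, aged 24 months) and 5mEE (n = 9, aged 5 months) had cages enriched with wheels, tunnels and nesting material, and 5mSC (n = 10, aged 5 months) had standard cages. According to the methods of the study, its animals were kept in separate runs at different times. Which library belongs to which run, what OE stands for, and the hour at which each hippocampus was taken are not stated in the labels or the methods, so the naming cannot be told apart from any of them. All p-values measure the spread between mice. For genes, edgeR estimated it over all 5 groups, and the permutation tests of library shares used the 24mSC mice alone. With 1 cohort of each name, no p-value measures a spread between cohorts or runs.

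Some gene groups of the hippocampus follow what an animal did in its last hours. Immediate early genes such as Fos, Arc and the Egr family are transcribed within minutes of neuronal firing and decay soon after, which makes them a common readout of recent exploration or handling. The circadian clock is a feedback loop in which CLOCK and BMAL1 (encoded by Arntl) switch on the Per and Cry genes through E-boxes, and the PER and CRY proteins then shut their own transcription down, so that Per and Arntl messages peak at opposite times of day. Glucocorticoids, the stress hormones that themselves follow a daily rhythm, raise a further set of genes in neurons and glia.

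The depth of the OE-named libraries lay between 12318267 and 23829290 assigned counts, and that of the numbered libraries between 15002708 and 26303885. Levels are given as CPM, counts scaled to a common library total, with library sizes scaled by TMM, a normalization that balances libraries on genes of average change. They compare a gene between mice, not genes with each other, since gene length is not divided out. Among the 105 pairs of libraries, the correlation of log2 CPM ran from 0.977 to 0.995, and every pair differed by more than counting noise (chi-square over its degrees of freedom from 2.39 to 178), so no library was counted as a duplicate. The median SD of a gene's log2 CPM between mice was 0.156 in the OE-named cohort, 0.137 without OE3273, and 0.156 in the numbered cohort. In principal components of the 15 libraries, the first held OE3273 at 58.1 whereas all others lay at 7.91 or lower. On the second (17.3%), the OE-named mice lay between 4.82 and 24.8 and the numbered mice between -19.8 and -2.69, without overlap. In components computed without OE3273, the first (22.6%) held the OE-named mice between 3.42 and 27.7 and the numbered mice between -22.1 and 3.19. There OE3272 and 24_1056 all but touched. The hippocampal markers were present in every library, those of CA1 at a summed 727 to 851 CPM in the OE-named and 730 to 914 CPM in the numbered mice, and those of the dentate gyrus at 188 to 409 CPM and 233 to 420 CPM.

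**Figure D1:**
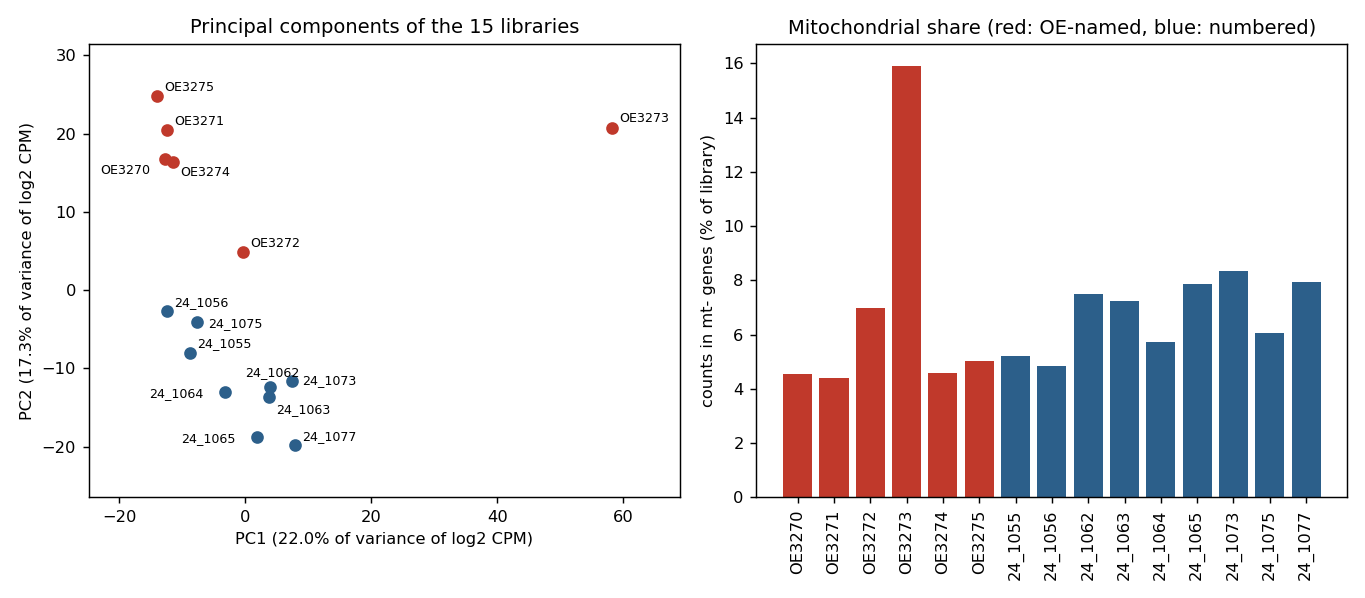
Left, the first and second principal components of log2 CPM of the 15 24mSC libraries, 1 point per mouse, with the share of variance on each axis. Right, the share of each library's counts in mitochondrially encoded genes (% of library, bars from 0), in which OE3273 reached 15.9% and no other mouse passed 8.34%.

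Mouse OE3273 carried 15.9% of its counts in mitochondrially encoded genes, whereas the other OE-named mice carried from 4.40 to 6.97% and the numbered mice from 4.86 to 8.34%, with a median of 7.25%. The excess lay in the mitochondrial ribosomal RNAs, which took 11.3% of its counts, from 0.903 to 1.70% in the other OE-named mice and from 1.13 to 2.22% in the numbered mice. With OE3273, the mean mitochondrial share was 6.90 ± 4.52% (SD, n = 6) in the OE-named and 6.75 ± 1.29% (SD, n = 9) in the numbered mice, a difference of 0.149 percentage points (exact permutation test, two-sided, p = 0.842). Without it the OE-named mean was 5.10 ± 1.07% (SD, n = 5) and lay 1.65 percentage points lower than that of the numbered mice (difference -1.65, exact permutation p = 0.036, 0.0719 after Benjamini-Hochberg adjustment over the 4 tests of library composition). The share of counts in the 50 most abundant genes behaved alike, with a difference of -0.118 percentage points with OE3273 (exact permutation p = 0.951) and -1.70 without it (exact permutation p = 0.023, adjusted 0.0719). OE3273 was left out because of its mitochondrial share, so the p-values without it are shaped by that choice and decide nothing. Its mitochondrial ribosomal RNAs also count toward the share of the 50 genes, so these measures are not independent.

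In OE3273, 208 genes exceeded the highest of the other 14 libraries by over 2 times, against at most 7 in any other library. The RNA subunits of the RNases MRP and P stood out among them. Rmrp measured 249 CPM in OE3273 and at most 1.53 CPM elsewhere, and Rpph1 measured 498 CPM and at most 6.17 CPM elsewhere. Both RNAs lack a poly(A) tail in the cell. Messages of ribosomal proteins were in the set too, such as Rps14 with 1853 CPM against at most 237 CPM and Rpl39 with 304 CPM against at most 24.9 CPM. In OE3274 the 7 genes were Xist, Trim67, Igfbpl1, St8sia2, Draxin, Cd24a and Dpysl3. Xist, the RNA that silences an X chromosome in female cells, measured 8.39 CPM in OE3274, from 0.315 to 0.935 CPM in the other OE-named mice and from 0.105 to 0.445 CPM in the numbered mice, although all 15 mice are labelled male. The Y-linked messages Ddx3y and Kdm5d measured 57.4 and 31.6 CPM in OE3274, within the numbered ranges of 40.5 to 81.5 CPM and 27.6 to 34.2 CPM. What this level of Xist comes from was not tested. When OE3274 was left out, 14 of 16 activity-induced transcription factors were higher (11 with OE3273 left out as well), 9 (7) of 12 clock repressors and outputs were higher, and 8 (3) of 20 microglia and 4 (3) of 18 myelin markers were lower. The single gene of OE3270 was Dhx16, an RNA helicase, with 103 CPM against at most 27.3 CPM.

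One model over all 39 libraries was used to test 17281 genes (edgeR quasi-likelihood test, Benjamini-Hochberg adjustment, called at an adjusted p below 0.05). In the OE-named mice 985 genes (5.7% of those tested) were higher than in the numbered mice, and 495 genes (2.86%) were lower. Refitted without OE3273, 803 of 17254 genes (4.65%) were higher and 336 (1.95%) were lower. Both fits called 748 genes higher and 268 genes lower, 1016 in all in the same direction. A further 236 higher and 227 lower genes were called only with OE3273, and of these 229 and 227 kept their sign with an unadjusted p below 0.05 when it was left out. Leaving the mouse out added 55 higher and 67 lower genes. In the plot of one fit against the other most called genes lie on the diagonal, and the genes that leave it are those that are high in OE3273.

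**Figure D2:**
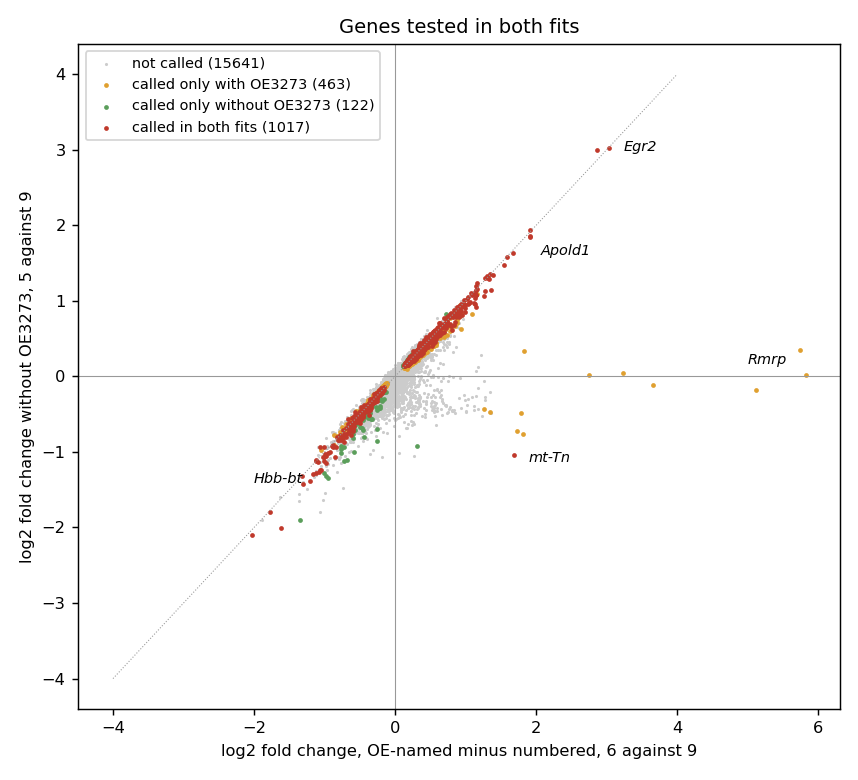
Log2 fold change of each gene, OE-named minus numbered, with all 6 OE-named mice (x axis) and without OE3273 (y axis), coloured by the fit that called it, and with the dotted line marking equal values. Called genes such as Egr2 and Apold1 keep their value, while Rmrp and mt-Tn are high only on the x axis.

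A single gene was called in opposite directions. The mitochondrial transfer RNA gene mt-Tn (chrM:5089-5159, 71 bases, GRCm38) measured 109.2 CPM in OE3273, from 2.27 to 4.69 CPM in the other OE-named mice and from 3.93 to 8.86 CPM in the numbered mice. Its log2 difference was 1.69 with OE3273 (adjusted p = 0.0441) and -1.04 without it (adjusted p = 0.0215). The list of RNAs without a poly(A) tail changed with it. Of 7 measured members, 2 (Rmrp and Rpph1) were higher with OE3273 and none without, and the list's median log2 difference went from 1.01 to -0.35, against -0.00245 and -0.0106 over all genes. The ribosomal RNA mt-Rnr2 (chrM:1094-2675) reached 84755 CPM in OE3273 against a median of 10786 CPM in the numbered mice, and passed the test in neither fit (log2 difference 1.01 ± 0.40 SE, adjusted p = 0.0998, and -0.48 ± 0.25, adjusted p = 0.232).

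The number of called genes also leaned on other libraries. With all libraries, 1480 genes were called, and 968 without OE3270, 962 without OE3271, 2262 without OE3272 and 897 without OE3275. In the fit without OE3273, 1139 genes were called, and 684 when OE3270 was left out as well, 634 for OE3271, 1755 for OE3272, 654 for OE3274 and 538 for OE3275. In 301 of the tested genes (1.74%) all 6 OE-named mice lay above all 9 numbered mice, and in 78 genes (0.451%) all 6 lay below. Of these, 275 and 63 were also called.

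Genes that neurons switch on with recent activity were higher in the OE-named mice. Of 16 activity-induced transcription factors, 15 were higher in the OE-named mice with OE3273 and 14 without, none was lower, and the median log2 difference was 0.90 and 0.86. In 11 of the 16 the cohorts did not overlap. The summed level of the 16 ran from 1043 to 1257 CPM in the OE-named mice and from 546 to 716 CPM in the numbered mice. The 15 genes of the fit with OE3273 are Fos, Fosb, Fosl2, Junb, Jun, Egr1 to Egr4, Npas4, Nr4a1 to Nr4a3, Ier2 and Klf10, of which Ier2 was not called without OE3273 (0.55). Ier5 had a log2 difference of 0.01 and -0.03.

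Egr2 (ENSMUSG00000037868, chr10:67535475-67542188, plus strand), a zinc finger transcription factor that neurons switch on with firing, differed most. Its level ran from 8.41 to 17.5 CPM in the OE-named mice (median 11.1) and from 0.741 to 2.78 CPM in the numbered mice (median 1.60). Every OE-named mouse, OE3273 with 12.2 CPM included, thus lay at least at 3 times the highest numbered mouse. The log2 difference was 3.04 ± 0.37 (SE, adjusted p = 5.18e-07) with OE3273 and 3.03 ± 0.38 without (adjusted p = 1.93e-06), an 8.15-fold difference.

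Fos (ENSMUSG00000021250, chr12:85473890-85477273, plus strand), the subunit of the AP-1 complex most used to map active neurons, ran from 33.1 to 53.0 CPM (median 41.6) in the OE-named mice and from 4.92 to 24.4 CPM (median 9.65) in the numbered mice. The cohorts did not overlap, and the highest numbered mouse was 24_1065. It differed by 1.91 ± 0.34 on the log2 scale (adjusted p = 0.000259) and 1.86 ± 0.35 without OE3273 (adjusted p = 0.000809). Its relative Fosb measured from 17.0 to 26.3 CPM against 6.82 to 10.6 CPM (1.31 ± 0.17 without OE3273, adjusted p = 3e-06). Junb, a partner of FOS in AP-1, measured from 72.2 to 103 CPM against 27.6 to 55.9 CPM (1.14 ± 0.20, adjusted p = 0.000264). Fosl2 differed less, with 77.6 to 96.5 CPM against 38.9 to 54.9 CPM, but with the smallest error of these 4 (0.86 ± 0.10, adjusted p = 1.43e-06). In each of these genes the lowest OE-named mouse lay above the highest numbered mouse.

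Egr4 and Egr1, further zinc finger factors of the family, ran from 32.9 to 50.4 CPM against 11.0 to 21.2 CPM and from 197 to 273 CPM against 74.7 to 133 CPM. Their log2 differences without OE3273 were 1.36 ± 0.19 (adjusted p = 1.26e-05) and 1.16 ± 0.22 (adjusted p = 0.00116). Nr4a1, an orphan nuclear receptor, ran from 112.2 to 155 CPM against 46.1 to 87.2 CPM (1.12 ± 0.20, adjusted p = 0.000546). None of these overlapped between the cohorts either. The calls of the factors described one by one here held when any 1 of the 15 mice was left out.

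**Figure D3:**
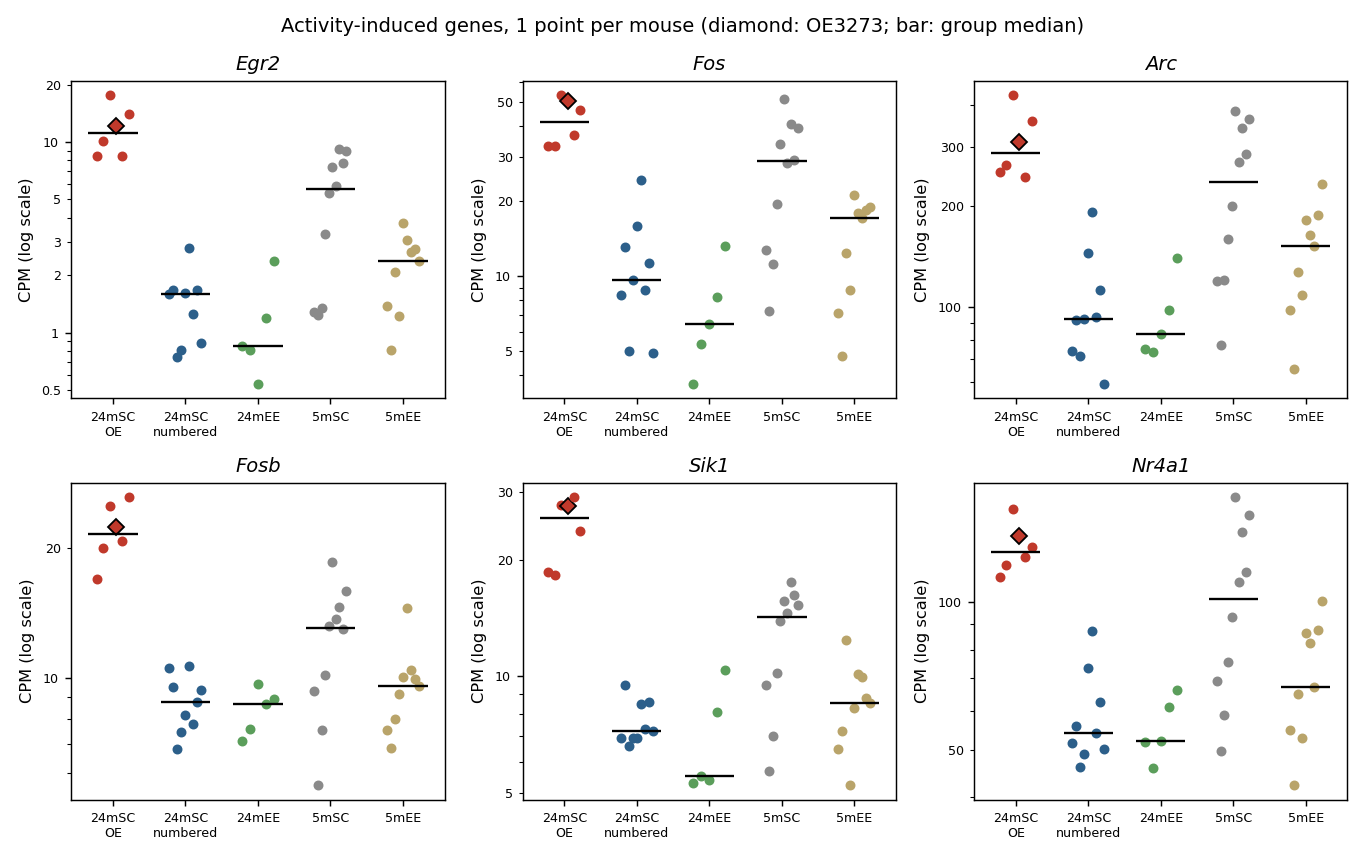
CPM (log scale) of 6 activity-induced genes in the 5 groups, 1 point per mouse, with bars at the group medians and a diamond for OE3273. In Egr2, Fos, Arc, Fosb, Sik1 and Nr4a1 all 6 OE-named mice lie above all 9 numbered mice. The 5mSC mice spread over both ranges except in Sik1, where their highest value (17.5 CPM) stays below the OE-named range.

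Of 15 activity-induced effectors, the proteins that act at synapses or turn the signal off, 9 were higher in both fits and none was lower, with a median log2 difference of 0.54 and 0.56. The 9 are Arc, Dusp1, Dusp5, Dusp6, Homer1, Gadd45b, Trib1, Sik1 and Btg2. Bdnf, the growth factor, had a log2 difference of 0.24 without OE3273, Nptx2 0.29 and Ptgs2 0.01, none of them past the test.

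Arc (chr15:74669083-74672570, minus strand), which drives the removal of AMPA receptors from synapses, ran from 244 to 428 CPM (median 288) in the OE-named mice and from 59.3 to 192 CPM (median 92.2) in the numbered mice. Its log2 difference was 1.58 ± 0.28 (adjusted p = 0.000251) and 1.58 ± 0.29 without OE3273 (adjusted p = 0.000613). Sik1 (chr17:31844250-31855804, minus strand), a kinase that is induced by cAMP and restrains its transcription programme, ran from 18.2 to 29.0 CPM (median 25.6) against 6.62 to 9.48 CPM (median 7.24), with 1.63 ± 0.19 (adjusted p = 7.62e-07). Dusp5, a phosphatase of ERK, and Gadd45b, a stress sensor tied to DNA demethylation, were 1.92-fold and 1.94-fold higher without OE3273 (adjusted p = 5.15e-06 and 1.05e-05). All 4 genes were free of overlap.

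The non-coding 1700016P03Rik (chr11:75172560-75177633, plus strand) is the host transcript of the neighbouring microRNAs miR-212 and miR-132, which CREB induces in active neurons. It ran from 5.04 to 7.41 CPM (median 6.32) in the OE-named mice and from 1.68 to 4.17 CPM (median 2.28) in the numbered mice, again without overlap. It differed by 1.32 ± 0.25 on the log2 scale (adjusted p = 0.000581) and 1.29 ± 0.26 without OE3273 (adjusted p = 0.00176). The mature forms, too short for these libraries, were not measured. Their sequences are shown because both share one seed, bases 2 to 8, in capitals (RefSeq, GRCm38.p6, chr11:75173443-75173464 and chr11:75173723-75173744, plus strand):
mmu-miR-212-3p: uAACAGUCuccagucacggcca
mmu-miR-132-3p: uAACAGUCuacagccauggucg

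Further genes among the 15 with the highest fold change belonged to no list. Apold1, an early response gene of blood vessels, ran from 4.63 to 19.9 CPM (median 14.7) in the OE-named mice and from 2.87 to 4.03 CPM in the numbered mice (1.84 ± 0.23 without OE3273, adjusted p = 1.93e-06). OE3270 and OE3271 were nearest to the numbered mice with 5.70 and 4.63 CPM, and the other OE-named mice lay between 12.96 and 19.9 CPM. Depp1, a target of FOXO factors, ran from 2.04 to 3.79 CPM against 0.875 to 1.62 CPM (1.24 ± 0.22, adjusted p = 0.000531). Rtp1, a chaperone of odorant receptors, overlapped, with 0.624 to 2.14 CPM against 0.186 to 1.45 CPM (1.48 ± 0.37, adjusted p = 0.0106). Tmem252 also overlapped, but narrowly, with 3.03 to 4.47 CPM against 1.29 to 3.04 CPM (1.11 ± 0.17, adjusted p = 5.25e-05). Of the 15 highest genes 13 did not overlap between cohorts, and 14 were protein coding. Over all tested genes, 1.74% had every OE-named mouse above every numbered mouse. As the 15 were picked by fold change in these same libraries, their separation follows largely from the choice.

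The clock genes came next. Of 12 repressors and output genes of the loop, 10 were higher in the OE-named mice with OE3273 and 9 without, none was lower, the median log2 difference was 0.37 and 0.34, and in 7 the cohorts did not overlap. The summed level ran from 1392 to 1522 CPM against 1083 to 1326 CPM. A list of 7 genes, named here the BMAL1 arm, held Arntl, Clock, Npas2, Rora and Rorb, but also the repressors Cry1 and Nfil3. Arntl was lower and none was higher, and the list's median was -0.06 and -0.08. Cry1 and Nfil3 were its 2 members with a positive log2 difference.

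The windows around transcription starts (250 bases before to 50 after) were taken for all genes of the clock and activity lists, called or not. They were searched on both strands for the E-box CACGTG, the cAMP response element TGACGTCA, and the D-boxes TTATGTAA and TTATGCAA. The D-boxes bind DBP and its relatives. Among the 32851 RefSeq windows of all genes, 7.15% hold the E-box, 1.79% the cAMP element, and 0.938 and 0.743% the D-boxes. Of the 12 repressors and outputs, 10 genes had a window and 6 of these held any of the motifs, of which 4 held the E-box. The activity-induced effectors gave the same figures (10 of 15 genes with a window, 6 with any motif, 4 with the E-box). Any motif was held by 1 of 12 activity-induced transcription factors with a window and by 1 of 7 genes of the BMAL1 arm, Cry1. The 6 clock genes with a motif include Bhlhe41, called only with OE3273, and Hlf and Tef, called in neither fit. These counts are per gene, and some genes have several windows, so they do not compare directly with the shares per window. Windows of 3 called genes are printed as the examples with a match, motifs in capitals (GRCm38.p6, 5′ to 3′ along the gene, Per1 chr11:69098699-69098998 plus strand, Ciart chr3:95882179-95882478 minus strand, Per3 chr4:151044616-151044915 minus strand):
Per1: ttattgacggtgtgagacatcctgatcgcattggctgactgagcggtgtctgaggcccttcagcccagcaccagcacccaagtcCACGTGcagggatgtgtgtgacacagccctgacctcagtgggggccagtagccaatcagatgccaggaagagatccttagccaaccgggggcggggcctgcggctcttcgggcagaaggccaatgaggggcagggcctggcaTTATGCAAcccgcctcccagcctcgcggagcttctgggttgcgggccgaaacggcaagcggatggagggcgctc
Ciart: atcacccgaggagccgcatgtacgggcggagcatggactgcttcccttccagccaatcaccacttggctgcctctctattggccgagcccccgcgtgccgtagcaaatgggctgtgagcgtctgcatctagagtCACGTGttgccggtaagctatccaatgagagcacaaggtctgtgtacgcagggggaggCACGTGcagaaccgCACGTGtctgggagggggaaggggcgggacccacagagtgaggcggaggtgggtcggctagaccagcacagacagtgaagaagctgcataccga
Per3: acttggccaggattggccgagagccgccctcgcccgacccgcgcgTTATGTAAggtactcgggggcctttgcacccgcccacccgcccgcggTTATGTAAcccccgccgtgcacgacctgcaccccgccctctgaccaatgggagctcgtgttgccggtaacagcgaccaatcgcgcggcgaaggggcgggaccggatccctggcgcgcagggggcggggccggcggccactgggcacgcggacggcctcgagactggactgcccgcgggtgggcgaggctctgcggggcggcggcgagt

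The Per1 window holds an E-box 166 bases before the start and a D-box 24 bases before it, the Ciart window holds E-boxes at 116, 58 and 44 bases, and the Per3 window D-boxes at 205 and 158 bases. The windows of Cry2, Dbp, Nr1d1, Nr1d2 and Arntl and another window of Per1 held none of these letters. Per2 and Bhlhe40 had no window in the table. The matches describe the sequence alone.

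Per1 (chr11:69095217-69109960, plus strand), a repressor of the loop that also answers to cAMP and glucocorticoids, ran from 109.4 to 153 CPM (median 127) in the OE-named mice and from 58.5 to 75.8 CPM (median 63.3) in the numbered mice. The log2 difference was 0.99 ± 0.12 (adjusted p = 2.92e-07) and 0.94 ± 0.12 without OE3273 (adjusted p = 1.93e-06), with OE3273 as the highest mouse. Per2 (chr1:91415982-91459324, minus strand), its partner in repression, ran from 50.4 to 65.0 CPM (median 58.0) against 26.2 to 38.7 CPM (median 32.2). Neither gene overlapped between the cohorts.

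Ciart (chr3:95878503-95882251, minus strand), a repressor of CLOCK and BMAL1, ran from 9.24 to 20.9 CPM (median 16.0) against 6.02 to 9.19 CPM (median 6.46), so the lowest OE-named mouse lay just above the highest numbered mouse (1.08 ± 0.15 without OE3273, adjusted p = 8.62e-06). Dbp, the output factor that binds D-boxes, ran from 32.0 to 44.2 CPM against 21.6 to 29.8 CPM (0.59 ± 0.11, adjusted p = 0.00103). Arntl (chr7:113207465-113314126, plus strand), whose product starts the loop, ran the other way, from 28.8 to 37.0 CPM (median 33.0) against 35.4 to 48.1 CPM (median 42.5). Its log2 difference was -0.34 ± 0.08 in both fits (adjusted p = 0.00567 and 0.0117), with some overlap. Per3, Cry2, Nr1d1, Nr1d2 and Bhlhe40 made up the 9 called without OE3273, and Bhlhe41 was called only with it (0.23 and 0.19). Cry1, which peaks later than Per1 in the cycle, had 0.23 ± 0.09 (adjusted p = 0.135) and Nfil3, the repressor at D-boxes, had 0.30 ± 0.13 (adjusted p = 0.143).

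**Figure D4:**
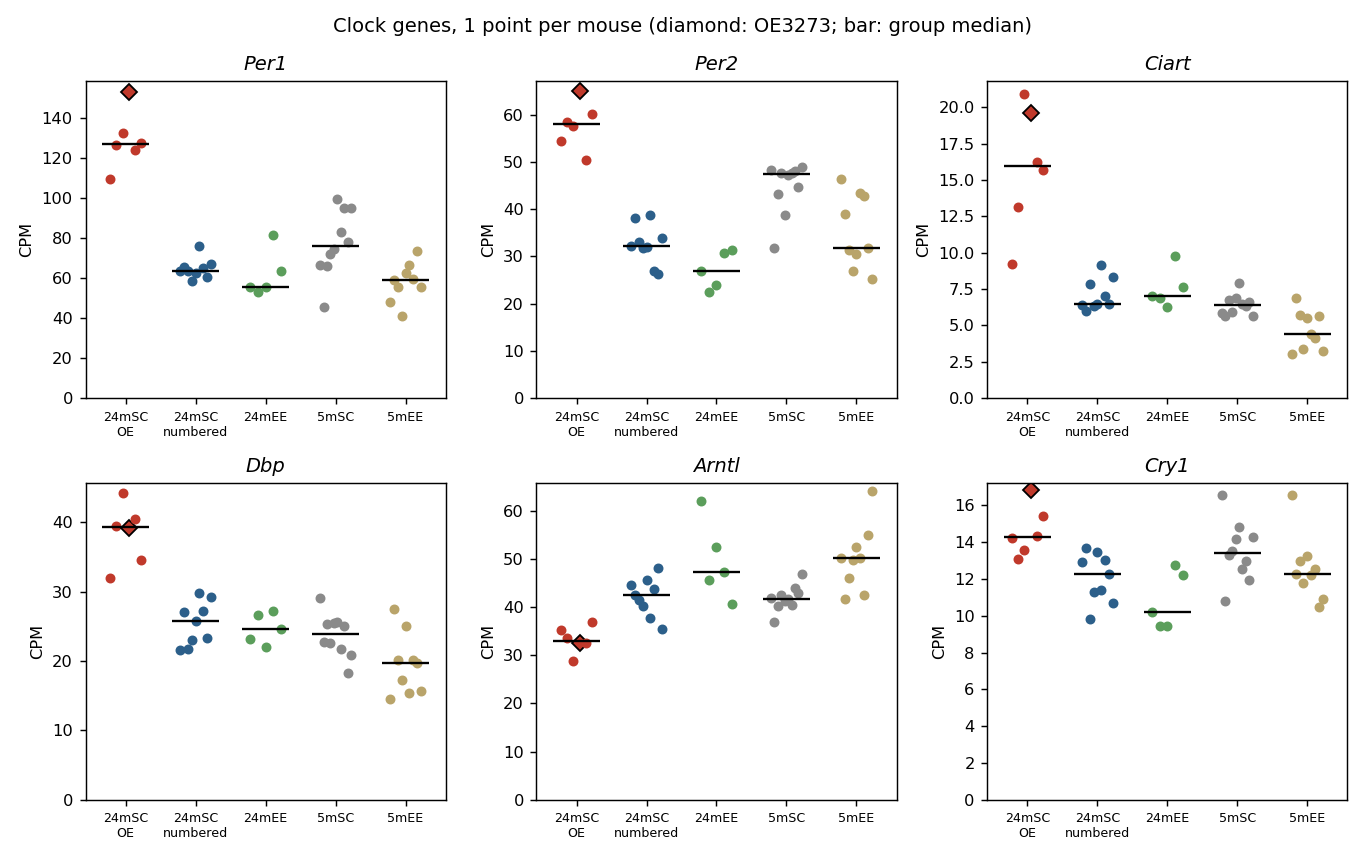
CPM (linear axis from 0) of 6 clock genes in the 5 groups, 1 point per mouse, with bars at the group medians and a diamond for OE3273. Per1, Per2, Ciart and Dbp are higher in all 6 OE-named than in all 9 numbered mice, whereas Arntl is lower with overlap and Cry1 overlaps.

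Glucocorticoid target genes were higher in part. Of 15 genes 6 were higher in both fits (Sgk1, Tsc22d3, Errfi1, Ddit4, Nfkbia and Klf9), none was lower, the median was 0.22 and 0.26, and 4 did not overlap. Sgk1, a kinase of salt and stress responses that oligodendrocytes raise strongly under corticosterone, ran from 113.4 to 142 CPM (median 130) in the OE-named mice and from 55.6 to 90.9 CPM (median 59.7) in the numbered mice. It differed by 1.03 ± 0.12 on the log2 scale (adjusted p = 2.78e-07) and 1.04 ± 0.12 without OE3273 (adjusted p = 5.1e-07). Errfi1, an inhibitor of the EGF receptor, ran from 49.9 to 61.3 CPM against 32.8 to 40.2 CPM (0.67 ± 0.07, adjusted p = 3.3e-07). Fkbp5 and Zbtb16, textbook targets of the receptor, had log2 differences of 0.26 and 0.27 without OE3273, and the metallothioneins Mt1 and Mt2 -0.18 and -0.16, none past the test.

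Of 21 chaperones of the heat shock and ER response, 2 were higher in both fits, beside 5.7% (with OE3273) and 4.65% (without) higher over all genes. The list's median log2 difference was -0.0055 with OE3273 and 0.047 without, and 9 and 13 of the 21 were positive. Hspa1a, the inducible Hsp70, ran from 2.90 to 7.93 CPM in the OE-named mice and from 1.299 to 3.34 CPM in the numbered mice, with the highest value in OE3275, and the call was lost without this mouse. Dnajb1, its Hsp40 partner, ran from 50.5 to 82.9 CPM against 41.6 to 57.4 CPM, and its call was lost without OE3275 as well. The cold-inducible RNA-binding protein Rbm3 ran from 27.6 to 35.6 CPM against 19.7 to 25.2 CPM, without overlap (0.35 ± 0.07, adjusted p = 0.00135), and was the one called of 2 cold-inducible genes. Of 10 hypoxia genes, the glucose transporter Slc2a1 was higher in both fits (86.7 to 108.1 CPM against 54.3 to 76.5 CPM, 0.60 ± 0.13, adjusted p = 0.00435). Bnip3 and Ankrd37 were lower with OE3273 only.

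Microglial genes were lower in the OE-named mice. Of 20 general microglia markers 10 were lower with OE3273 and 6 without (P2ry12, P2ry13, Olfml3, Aif1, C1qb and Trem2), none was higher, the median log2 difference was -0.33 and -0.31, and 2 did not overlap. Their summed level ran from 672 to 823 CPM in the OE-named mice and from 789 to 1000 CPM in the numbered mice. In bulk tissue, fewer cells of a type and less RNA per cell cannot be told apart. The count of lower genes leaned on single mice, as it was 4 without OE3271 and 6 without OE3275, and when OE3273 was left out too, 13 without OE3272, 3 each without OE3274, 24_1065 and 24_1077, 2 without OE3271 and 1 without OE3275.

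P2ry13 (chr3:59207892-59210882, minus strand), a purinergic receptor of resting microglia, ran from 11.0 to 14.6 CPM (median 12.4) in the OE-named mice and from 15.9 to 22.6 CPM (median 20.2) in the numbered mice, without overlap. The log2 difference was -0.64 ± 0.10 (adjusted p = 2.73e-05) and -0.62 ± 0.10 without OE3273 (adjusted p = 0.000161). Trem2, the lipid receptor that drives microglial activation, ran from 12.7 to 18.3 CPM against 18.5 to 26.0 CPM, just short of touching (-0.48 ± 0.12, adjusted p = 0.0106), and its call was lost when OE3275 was left out beside OE3273. Aif1, the gene of the marker protein IBA1, overlapped, with 3.07 to 9.14 CPM against 6.24 to 12.8 CPM, and OE3273 was the highest of its cohort (-0.78 ± 0.21, adjusted p = 0.0173). The call of Aif1 was lost in turn without any of OE3270, OE3271, OE3274, OE3275, 24_1062 to 24_1065, 24_1073 or 24_1077, and beside OE3273 without OE3271 or OE3275. Olfml3 lost its call beside OE3273 without 24_1065, 24_1077, OE3271, OE3274 or OE3275.

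Of 21 markers of activated microglia 3 were lower with OE3273 (Lyz2, Clec7a and Ctsz) and 1 without, with a median of -0.23 and -0.28. Over all genes, 2.86% were lower with OE3273 and 1.95% without. Lyz2, lysozyme of the myeloid lineage, ran from 8.11 to 13.3 CPM against 12.6 to 24.1 CPM (-0.80 ± 0.19 without OE3273, adjusted p = 0.00751). Cd180, a Toll-like receptor homologue of B cells and myeloid cells, and Il1a, an interleukin that microglia make in the healthy brain, were among the 15 genes with the lowest fold change. Cd180 ran from 2.33 to 3.55 CPM against 4.65 to 6.42 CPM, without overlap (-0.84 ± 0.15, adjusted p = 0.000546). Il1a ran from 0.445 to 1.60 CPM against 1.05 to 1.95 CPM, and OE3273 was the only OE-named mouse inside the numbered range (-1.07 ± 0.26 without it, adjusted p = 0.00796). With OE3273, its call was lost without 24_1077, OE3271, OE3274 or OE3275, and that of Clec7a without OE3271 or OE3274.

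Few genes of antigen presentation and the interferon response were called, which without OE3273 was 1 gene in each list, beside 1.95% lower over all genes. Of 16 MHC class I genes 3 were lower with OE3273 and 1 without, the median was -0.25 in both fits, and no member had a positive log2 difference with OE3273. The called member of both fits was Psmb9, a subunit of the immunoproteasome (2.13 to 3.11 CPM against 2.57 to 5.15 CPM, -0.63 ± 0.19, adjusted p = 0.0371), and H2-T22 and H2-T23 were called only with OE3273, and leaving out any of 24_1055, 24_1064, 24_1065, 24_1077, OE3271 or OE3275 cut the 3 calls to 1. Of 29 interferon response genes with OE3273 2 were lower (Rsad2 and Xaf1) and Irf9 was the single higher one, and Xaf1 alone was called without it, beside medians of -0.31 and -0.36. Xaf1, an interferon-induced apoptosis factor, ran from 5.47 to 7.18 CPM against 7.49 to 11.8 CPM, without overlap. Beside OE3273, leaving out OE3275 ended the call of Xaf1, and any of 24_1055, 24_1063, 24_1064, 24_1077, OE3270, OE3271, OE3274 or OE3275 ended that of Psmb9. Irf9 lost its call without 24_1077, OE3270 or OE3275, and Rsad2 without any 1 mouse but 24_1056 and 24_1075. None of 12 complement genes was called (medians -0.18 and -0.15).

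**Figure D5:**
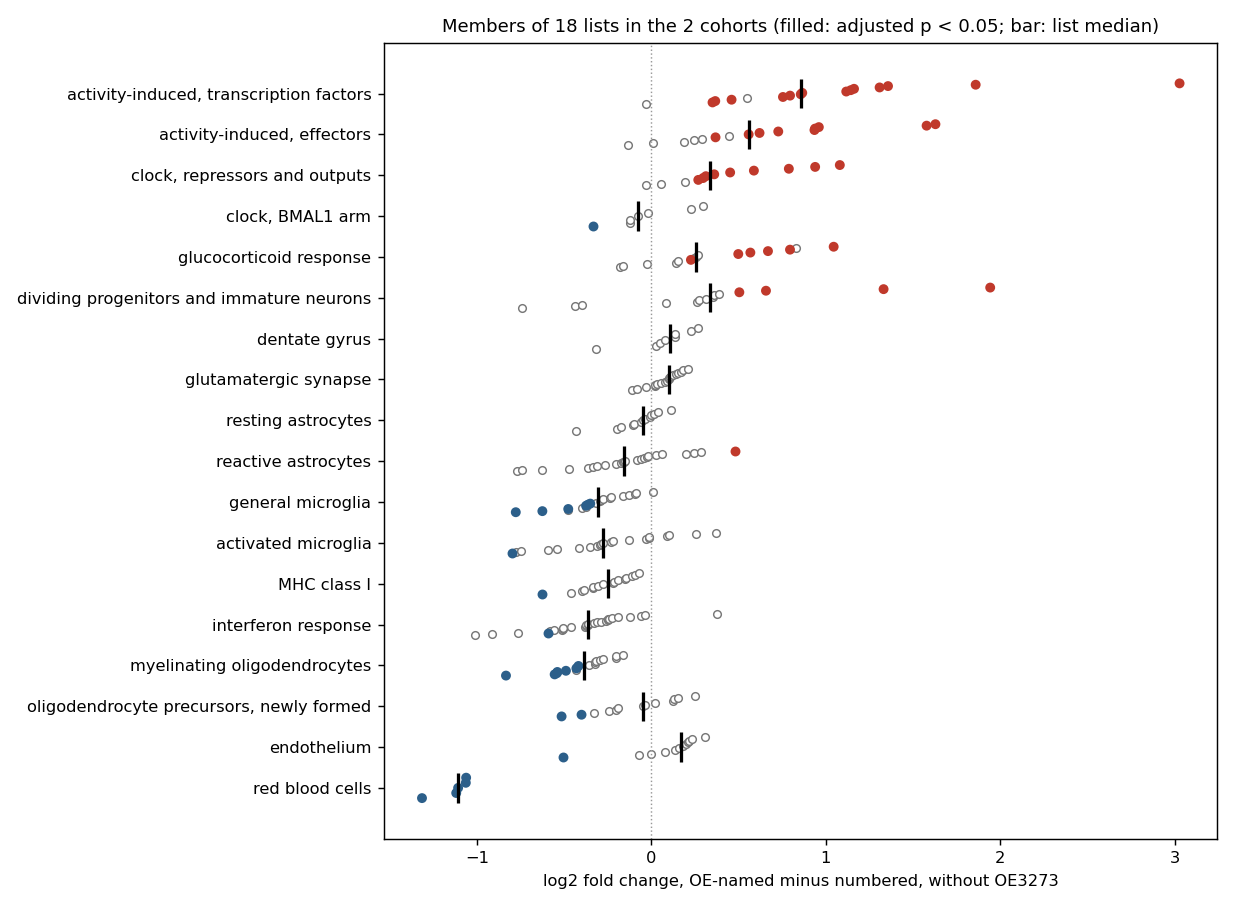
Log2 fold change of every tested member of 18 of the 40 lists, OE-named minus numbered without OE3273, 1 point per gene, filled where the adjusted p was below 0.05, with a bar at each list's median. The activity, clock repressor and glucocorticoid lists lie right of 0, and the myelin, microglia, MHC class I and red blood cell lists lie left of it.

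Myelin genes were lower too. Of 18 markers of myelinating oligodendrocytes, 8 were lower with OE3273 and 7 without, all 18 had a negative log2 difference with OE3273, and the median was -0.38 and -0.39. The summed level ran from 4918 to 6583 CPM in the OE-named mice and from 5456 to 8395 CPM in the numbered mice and so overlapped. The count fell to 5 without 24_1062, 24_1064, 24_1065, OE3270 or OE3275 and to 4 without OE3271 or OE3274, and it was 13 without 24_1075. When OE3273 was left out as well, it fell to 4 without 24_1062 or 24_1064, to 3 without 24_1065, OE3270, OE3274 or OE3275 and to 2 without OE3271.

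Opalin (chr19:41061710-41077113, minus strand), a membrane protein of central myelin, was the one member without overlap, with 11.3 to 19.5 CPM (median 15.6) against 21.5 to 35.2 CPM (median 27.5). Its log2 difference was -0.77 ± 0.16 (adjusted p = 0.0016) and -0.83 ± 0.17 without OE3273 (adjusted p = 0.00191). Gjb1, the connexin 32 of oligodendrocytes, ran from 7.90 to 12.3 CPM against 11.6 to 18.1 CPM (-0.54 ± 0.13, adjusted p = 0.00709). The abundant Mbp had a log2 difference of -0.36 without OE3273 and did not pass the test. Among 13 genes of the precursor and newly formed oligodendrocyte stages, the lineage factors Olig1 and Olig2 were lower in both fits, whereas Pdgfra and Cspg4, which mark the precursors themselves, had 0.13 and 0.15 without a call. Olig2 ran from 16.1 to 23.1 CPM against 20.2 to 35.4 CPM (-0.51 ± 0.12, adjusted p = 0.00865), while the call of Olig1 was lost when OE3275 was left out beside OE3273.

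Red blood cell genes were lower in the OE-named mice. Of 5 measured genes 3 were lower with OE3273 and all 5 without (Hba-a1, Hba-a2, Hbb-bs, Hbb-bt and Alas2), with medians of -1.01 and -1.11. The alpha globin gene Hba-a1 ran from 2.14 to 6.97 CPM against 5.87 to 14.9 CPM (-1.06 ± 0.28, adjusted p = 0.0147). The beta globin gene Hbb-bs measured 61.8 CPM in OE3273 beside a cohort median of 20.8 CPM and a numbered range from 28.9 to 67.2 CPM. Its log2 difference was -0.73 ± 0.28 with OE3273 (adjusted p = 0.0972) and -1.12 ± 0.27 without (adjusted p = 0.00975). The paired alpha and beta globin genes are near-identical copies, so reads may be split between them. OE3274 lay inside the numbered range in all 5 genes and OE3273 in both beta globin genes, whereas the other 4 OE-named mice lay below it in all 5. Leaving out OE3271 left 1 of the calls in either fit, and leaving out OE3275 left 2 of the 5 without OE3273.

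Most markers of the endothelium list were not called, while Apold1, outside that list, was higher as given above. Over all genes, 2.86% were lower with OE3273 and 1.95% without. Of 12 endothelial markers, the tight junction protein Cldn5 was lower in both fits (18.01 to 26.2 CPM against 28.8 to 45.9 CPM, without overlap, -0.51 ± 0.13, adjusted p = 0.0135), while the list's median was 0.13 and 0.17. Edn1, the vasoconstrictor endothelin, was among the 15 lowest, with 1.24 to 2.38 CPM against 2.395 to 4.76 CPM, so that the cohorts were just separate (-0.94 ± 0.17, adjusted p = 0.000644). None of 13 markers of pericytes and meninges was called.

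Markers of dividing progenitors and immature neurons were higher in part, and OE3274 had the highest summed level. Of 14 measured genes 6 were higher with OE3273 (Dcx, Sox11, Neurod1, Igfbpl1, Draxin and Ccnd2) and 4 without, with medians of 0.35 and 0.33, and 2 were called in either fit when OE3274 was left out, at medians of 0.22 and 0.20. The summed level was 312 CPM in OE3274, from 223 to 273 CPM in the other OE-named mice and from 149 to 212 CPM in the numbered mice, so the cohorts did not overlap with or without OE3274. Ccnd2, a cyclin of neural progenitors, ran from 104 to 133 CPM against 60.6 to 81.97 CPM and was the one member without overlap (0.66 ± 0.10, adjusted p = 5.25e-05). Sox11, a factor of newborn neurons, ran from 11.2 to 19.3 CPM against 7.001 to 12.4 CPM (0.50 ± 0.11, adjusted p = 0.00394).

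Some of the 7 genes that stood apart in OE3274, beside Xist, are known from young neurons. Igfbpl1 measured 2.12 CPM in OE3274, at a cohort median of 0.468 CPM and a numbered maximum of 0.461 CPM. Draxin, an axon guidance cue, measured 2.47 CPM, St8sia2, the sialyltransferase that decorates NCAM in migrating neurons, 10.3 CPM against at most 4.22 CPM, and Dpysl3 118 CPM against at most 57.3 CPM elsewhere. Cd24a measured 19.0 CPM against at most 8.84 CPM, and Trim67 14.5 CPM against at most 5.30 CPM. The calls of Draxin and Igfbpl1 were lost without OE3274, and beside OE3273 that of Igfbpl1 also without 24_1055, 24_1063, 24_1064, 24_1065, 24_1077 or OE3270. Eomes, the marker of intermediate progenitors, and the proliferation marker Mki67 had log2 differences of -0.74 and 0.36 without OE3273 and did not pass the test.

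Lists of the hippocampal fields gave no calls. None of the 6 CA1, 6 CA2, 5 CA3 or 8 dentate gyrus markers was called in either fit, with medians between -0.07 and 0.13. The same held for 19 genes of the glutamatergic synapse (medians 0.07 and 0.10), for 7 thalamic, 8 cortical and subicular, 9 striatal and septal, and 5 hypothalamic and pituitary markers (4 of them tested without OE3273) and for 13 resting astrocyte markers (-0.05 in both fits). The choroid plexus (13 genes) and ependyma (9 genes) had medians of -0.48 and -0.36 with OE3273 and no call. Of 24 reactive astrocyte markers Amigo2 alone was called, as higher (27.8 to 40.3 CPM against 21.9 to 32.9 CPM, lowest in OE3273, called neither way without OE3274), at list medians of -0.14 and -0.15. Over all genes 5.7% were higher with OE3273 and 4.65% without, so a single call, here or among the interneurons, says little about a list. Of 11 interneuron markers only Lhx6 was called, and only without OE3273 (0.26 ± 0.07, adjusted p = 0.0213, lost without OE3271 or OE3274), while Pvalb reached 88.6 CPM in OE3273 against at most 63.1 CPM in the numbered mice and passed the test in neither fit.

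None of 7 mitochondrial messages (medians -0.32 and -0.41) and none of 25 nuclear genes of oxidative phosphorylation (-0.10 and -0.13) was called. Of 6 measured lymphocyte and plasma cell genes, the immunoglobulin heavy chain Ighm was lower with OE3273 only (-0.63 ± 0.19, adjusted p = 0.0317), and not without 24_1073, OE3271, OE3274 or OE3275. None of 7 genes at loci that differ between C57BL/6 substrains, Nnt among them, was called, with medians of -0.03 and -0.04. Among 10 genes that the study placed as hubs of its interaction network, Cttnbp2 and Diexf were higher in both fits (1.23-fold and 1.16-fold without OE3273) and Il4ra was lower with OE3273 only. This list was chosen by the study on samples that may include these. Over all genes, 5.7% were higher and 2.86% lower with OE3273, and 4.65% and 1.95% without.

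Of 7 nuclear-retained RNAs, Neat1 alone was called, as lower, beside 2.86% (with OE3273) and 1.95% (without) lower over all genes. Neat1 (chr19:5824708-5845478, minus strand), the scaffold RNA of paraspeckles, ran from 210 to 275 CPM (median 224) in the OE-named mice and from 279 to 463 CPM (median 375) in the numbered mice, with OE3273 as the highest of its cohort. The log2 difference was -0.63 ± 0.12 (adjusted p = 0.000926) and -0.69 ± 0.13 without OE3273 (adjusted p = 0.00115). Malat1, transcribed beside it, had 0.22 and 0.11 without a call. Long intergenic RNAs were called mostly as lower, 21 of 452 with OE3273 against 5 higher, whereas of 14843 protein-coding genes 427 were lower and 911 higher.

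Low non-coding transcripts made up much of the other end. Of the 15 genes with the lowest fold change 9 were protein coding, 6 were not, and 4 did not overlap between the cohorts. Over all tested genes 0.451% had every OE-named mouse below every numbered mouse, and these 15 were likewise picked by fold change. The non-coding 2900052L18Rik ran from 2.39 to 3.99 CPM against 4.08 to 7.85 CPM (-1.05 ± 0.18, adjusted p = 0.000269), and Gm10863 from 0.749 to 2.13 CPM against 1.85 to 3.27 CPM (-1.14 ± 0.21, adjusted p = 0.000627). Gm15594 (chr6:18424684-18427885, plus strand) lies inside Cttnbp2 (chr6:18366478-18514843, minus strand), and as the library kit did not mark strand, their reads cannot be told apart there. They moved in opposite directions, Gm15594 at -0.94 ± 0.23 (adjusted p = 0.0105) and Cttnbp2 at 0.30 ± 0.07 (adjusted p = 0.012, lost when OE3270, OE3271 or OE3275 was also left out). The others of the 15 were Ly6g6f, Alas2, Il1a, Hba-a1, Hba-a2, Edn1, Sp7, Tnfrsf13b and Cd180 among coding genes, and Gm38071, A930036I15Rik and Gm37310 among the rest. Of these, Sp7, Ly6g6f, Alas2, Il1a, Hba-a1, Hba-a2, Gm38071, A930036I15Rik and Gm37310 lost their call in at least 1 fit with 1 more mouse left out.

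Gene length moved with the direction of the calls. Genes with an exon length were divided into 3 equal classes of 5742 genes, up to 2937 bases, up to 5477 bases and longer. With OE3273, 150 genes of the shortest class were higher and 246 lower, 278 and 181 in the middle class, and 556 and 68 in the longest class. Without it the numbers were 102 and 169, 247 and 116, and 454 and 50, so the lean did not rest on this mouse. The median exon length was 5984.5 bases among genes higher in both fits, 2845 bases among genes lower in both, and 4070 bases over all tested genes. In an alternative chosen after seeing the data, offsets removed each library's smooth trend over gene length, which lessens the lean by construction. With OE3273, 325 genes of the longest class were then higher and 147 lower, and 217 and 101 of the shortest. Without it the numbers were 273 and 102, and 157 and 78. With and without OE3273, these offsets called 15 and 15 of the activity-induced transcription factors higher and 9 and 7 of the clock repressors higher. They called 7 and 4 of the microglia markers lower, and 6 and 6 of the myelin markers lower. The part of gene length in these differences was not tested further.

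Set against 5mSC, the cohorts took different sides in the activity genes. Both comparisons share the 5mSC mice, so they are given side by side only. Unless stated, the values against 5mSC are from the fit with OE3273. One 5mSC library carried 13.1% of its counts in mitochondrial genes, and its part in these values was not tested. Against 5mSC, 831 genes (4.81%) were higher and 603 (3.49%) lower in the OE-named mice, and 452 (2.62%) were higher and 440 (2.55%) lower in the numbered mice. Refitted without OE3273, 604 were higher and 384 lower in the OE-named mice, and 488 and 433 in the numbered mice. Of the 16 activity-induced transcription factors 6 were higher and none lower in the OE-named mice, whereas 9 were lower and none higher in the numbered mice. Egr2 had a log2 difference of 1.16 (adjusted p = 0.019) in the former and -1.87 (adjusted p = 0.000613) in the latter, and its 5mSC range of 1.24 to 9.20 CPM bridged both. Of the 12 clock repressors and outputs 9 were higher in the OE-named mice, and 2 were lower in the numbered mice. Per2 had 0.37 (adjusted p = 0.0277) and -0.46 (adjusted p = 0.00319). Without OE3273 the former was 0.33 and lost its call (adjusted p = 0.0643).

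Values against 5mSC were unequal in other genes as well. Sgk1 had 1.07 (adjusted p = 7.8e-08) in the OE-named mice and 0.04 (adjusted p = 0.911) in the numbered mice. Neat1 had -0.02 (adjusted p = 0.925) and 0.61 (adjusted p = 0.000386), Cd180 -0.12 (adjusted p = 0.656) and 0.70 (adjusted p = 0.000326), and Trem2 -0.02 (adjusted p = 0.923) and 0.46 (adjusted p = 0.00207). Lyz2 had 0.40 (adjusted p = 0.143) and 1.23 (adjusted p = 1.18e-06). Of the 16 MHC class I genes 2 were higher in the OE-named and 12 in the numbered mice, and of the 20 general microglia markers 3 were lower in the OE-named mice, where no member was higher, and 6 were higher and 1 lower in the numbered mice. For the genes whose test between the cohorts is given above, that test is the measure of the difference.

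The 24mEE mice were set beside each cohort in the same way, and the difference between these comparisons was not tested on its own. Against the OE-named mice, 374 genes (2.16%) were higher and 724 (4.19%) lower in 24mEE. Without OE3273 the numbers were 307 and 643, and the counts per list below are from the fit with it. Against the numbered mice none was called in either direction (0.0%), with 744 genes at an unadjusted p below 0.05 in edgeR, and DESeq2 likewise called none, with 908 at an unadjusted p below 0.05. Of the 16 activity-induced transcription factors 14 were lower in 24mEE than in the OE-named mice, and of the 12 clock repressors 9 were lower, while 10 of 20 microglia markers and 8 of 18 myelin markers were higher. Egr2 in 24mEE ran from 0.539 to 2.38 CPM and Per1 from 52.8 to 81.5 CPM, both below the whole OE-named range and overlapping that of the numbered mice. The 24mEE mice carry numbers of the same series as the numbered cohort, from 24_1070 to 24_1076 and interleaved with it, and the run of each is not given, so housing and cohort cannot be told apart in a comparison with the OE-named mice.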

How the data were processed

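Hippocampal RNA was sequenced from single mice (TruSeq RNA v2, single-end reads). The counts deposited by the authors are raw, whole reads assigned to each gene. According to the submitters' processing notes they came from bcl2fastq 1.8.3, STAR 2.4.1d and featureCounts 1.4.6-p4 on GRCm38. The study's text describes another pipeline for its own results. The deposited RPKM values were not used, since their column sums rise with the library totals.

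Genes were kept with filterByExpr over 5 groups (24mSC OE-named, 24mSC numbered, 24mEE, 5mSC, 5mEE). TMM factors and the edgeR quasi-likelihood test were used with Benjamini-Hochberg adjustment over all genes tested (threshold 0.05), in all 39 libraries and again in 38 without OE3273. Two-sided exact permutation tests over mice served for library shares. Software was R 4.3.3, edgeR 4.0.16, limma 3.58.1 and DESeq2 1.42.0, and the scripts were tested on simulated data. The members and the 40 lists (483 of 525 listed genes tested) were chosen with earlier results of these data known. Named genes are the 15 highest and 15 lowest fold changes among genes called in both fits with at least 1 CPM on average, and from each list the 4 genes of smallest p. List members and genes of single libraries beyond this rule were named after their values were seen. Counts per list, and genes that stand apart in 1 library, are descriptions. Exon lengths and coordinates were matched for 17226 tested genes, and promoter and microRNA sequences are from RefSeq (GRCm38.p6).

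Alternatives were DESeq2, RLE factors, leaving out the filter, a filter of 1 CPM in 5 libraries, the 2 cohorts fitted alone, limma voom with quality weights, each 24mSC library left out, and, chosen after seeing the data, offsets for gene length. Depth per library (given in the report) limits the precision of low levels.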

Additional observations from a re-analysis of the deposited data

Results flagged for a closer look

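Of 164 groups of values checked, 22 had a highest or lowest mouse farther from its cohort than Dixon's 95% critical value. For independent values with a normal spread, chance gives about 1 in 20. The values here overlap in part, and many genes were named by their differences in these data, so that rate is no measure of the 22. In the OE-named cohort, OE3273 was the highest in the mitochondrial share of counts (15.9%), in the share of the 50 most abundant genes (22.2%), in mt-Rnr1 (38767 CPM), mt-Rnr2 (84755 CPM), Pvalb (88.6 CPM) and Il1a (1.60 CPM), and the lowest in Amigo2 (27.8 CPM). OE3274 was the highest in Draxin (2.47 CPM), Igfbpl1 (2.12 CPM) and Alas2 (3.76 CPM), OE3275 was the highest in Hspa1a (7.93 CPM) and the lowest in Cd180 (2.33 CPM), OE3272 was the highest in Mobp (839 CPM), and OE3270 was the lowest in Rtp1 (0.624 CPM).

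Among the numbered mice, 24_1065 was the highest in 5 genes that were higher in the OE-named cohort, namely Egr2 (2.78 CPM), Rtp1 (1.45 CPM), Tmem252 (3.04 CPM), Per1 (75.8 CPM) and Sgk1 (90.9 CPM). In Egr2, Per1 and Sgk1 it still lay below the lowest OE-named mouse. Mouse 24_1064 was the highest in Hba-a1 (14.9 CPM), 24_1055 in Lhx6 (22.2 CPM) and 24_1073 in Ighm (29.3 CPM).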

How the results depend on the processing

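The number of called genes (1480 with OE3273, 1139 without) was 816 and 683 with no filter on low counts, 5183 and 5489 with limma voom and quality weights, and, with the 2 cohorts fitted alone, 2254 without OE3273. Leaving out 1 mouse gave 897 to 2262 genes with OE3273 and 538 to 1755 genes without. DESeq2 called 1784 and 1434 genes, RLE factors 1467 and 1105, a minimum of 1 CPM 1504 and 1160, and length offsets 1215 and 970. The difference in mitochondrial share turned to -1.65 percentage points, and that of the 50 most abundant genes grew from -0.118 to -1.70, without OE3273. Signs also turned in the median of the RNAs without a poly(A) tail (-0.373 with voom, and -0.355 to 1.21 with 1 mouse left out, lowest without OE3273), in mt-Rnr1 (-0.36 with voom, -0.43 to 0.94 with 1 left out), in mt-Rnr2 (-0.37 with voom, -0.48 to 1.21 with 1 left out) and in the lymphocyte median (-0.413 without OE3274 to 0.0414 without 24_1073). The cause was not tested, and of the turns just listed each other than the lymphocyte median came with OE3273 left out or weighted down. Small medians of further lists also changed sign when 1 more mouse was left out beside OE3273. Examples are the dentate gyrus (-0.00643 to 0.243) and CA3 (-0.0271 to 0.155). For named genes, 3230 values kept direction and side of the threshold, 139 lost the call, 61 gained it and 4 turned. No paired analysis was possible because the cohorts share no replicate numbers. Sex, age, strain and housing are the same by label, and run, hour of dissection and naming cannot be told apart.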
